A study of Mus musculus with 7 samples.

Results

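Genes that copy DNA and drive mitosis were followed in RNA sequencing of whole mouse lung with and without Scgb3a2. The group holds 45 named genes of DNA replication and mitosis, taken by gene symbol from a count table of 28828 entries, and all 45 were found. They were split by textbook role into 28 mitotic genes and 17 S phase genes. All 45 passed the filter on low counts and were tested among 19832 genes. The member with the fewest counts over all libraries, Ccne1, had 16, 32 and 32 counts in KO3, KO4 and KO5, against 16, 16, 8 and 11 in WT2, WT3, WT4 and WT6.

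The libraries are 3 from lung of Scgb3a2 knockout C57BL/6 mice (KO3, KO4 and KO5) and 4 from lung of wild type C57BL/6 mice (WT2, WT3, WT4 and WT6), numbered as in their titles. Scgb3a2 encodes a small secreted protein made by airway secretory cells. The labels give no other allele and no age, sex, treatment or batch, and do not say whether the disruption is conditional. They do not tie each library to its own animal, so p-values measure the spread between libraries, which may be technical.

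Cells copy their DNA in S phase and separate the copies in mitosis. Before S phase, the MCM helicase is loaded on DNA, and cyclin E with its kinase starts copying, while E2F factors switch on the genes of replication. Later, cyclins A and B with Cdk1 drive mitosis, and many mitotic genes share a promoter element called CHR. Most cells of an adult lung do not divide, so transcripts of this kind are sparse in whole-lung RNA. Ki-67 protein, the product of Mki67, is the usual histological marker of dividing cells.

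Library totals were 13071262 to 15987368 counts in knockout and 13600557 to 16480006 in wild type lung. Scgb3a2 had 19 to 37 counts in knockout and 2636 to 4204 in wild type libraries, so each library carried the level of its label. The lung markers Sftpc, Scgb1a1 and Ager were abundant in all 7, with Sftpc at 5886 to 8543 CPM in knockout and 6823 to 8754 CPM in wild type libraries. CPM, the usual depth-scaled read counts, use the library total scaled by TMM, a correction for library composition. KO5 and WT6 stood apart from the rest, with Scgb1a1 at 6755 CPM in KO5 and 8364 CPM in WT6 against 12314 to 14553 CPM in the other 5. The class medians are also given without them, and the larger moves of single genes without KO5 or without both are named.

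The 45 genes made up 0.0447% to 0.0624% of the counts in knockout libraries and 0.0391% to 0.0448% in wild type libraries. Levels between genes were compared per kilobase of annotated exon. On that scale Pcna, the sliding clamp of DNA polymerases, led with 15.8 CPM per kilobase in knockout and 15.7 in wild type lung. Of the 6 most abundant genes in wild type lung, all were S phase genes: Pcna, then Mcm4, Mcm6, Mcm7, the thymidine kinase Tk1 and Mcm3. Mki67 was the seventh, with 7.14 CPM per kilobase in knockout and 4.03 in wild type lung. At the low end stood the repressor E2f8, with 0.384 in knockout and 0.253 in wild type lung, and Ccne1, with 0.679 and 0.314. The 6 MCM subunits, which act together as a ring, had unequal levels on this scale in wild type lung. They ran from 2.15 for Mcm2 and 2.49 for Mcm5 to 6.81 for Mcm4. Their order depends on the exon length used, which was 6.956 kb for Mcm2 and 3.589 kb for Mcm4. In CPM the wild type means ran from 9.96 for Mcm5 to 29.3 for Mcm6.

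The promoters of the members differ by class in the letters they hold, and 4 are shown to let the elements be seen. Windows of 250 bases before to 50 after the annotated start came from RefSeq (GRCm38.p6) and were found for 38 of 45 members, 23 mitotic and 15 S phase. The motifs were searched on both strands. They are the CHR letters TTTGAA or TTCGAA, the CCAAT box, and the E2F letters TTCCCGC or TTCGCGC or TTGCCGC or TTGGCGC. A CHR match was in 80.0% of 25 windows of mitotic members and 25.0% of 16 windows of S phase members, against 19.2% of all 32851 windows. An E2F match was in 24.0% of mitotic and 56.2% of S phase windows, against 9.57% of all. CCAAT was in 80.0% and 68.8%, against 37.4% of all. The last bases of 34 of the 41 member windows lie in a GENCODE transcript of the gene. A match is a description of letters and says nothing of binding. Capitals mark the matches below, each window being printed in the direction of its gene. The Mki67 window (chr7:135716330-135716629, minus strand) holds CHR letters at -116 and -98 from the start, 3 CCAAT boxes and 1 E2F match.
Mki67: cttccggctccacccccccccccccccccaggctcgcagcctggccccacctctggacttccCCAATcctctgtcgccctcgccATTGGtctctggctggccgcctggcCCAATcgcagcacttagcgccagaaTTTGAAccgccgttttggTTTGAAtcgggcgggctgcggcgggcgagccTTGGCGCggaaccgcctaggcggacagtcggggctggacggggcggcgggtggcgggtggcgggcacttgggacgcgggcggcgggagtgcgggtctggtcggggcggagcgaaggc
The Ccnb1 window (chr13:100786437-100786736, minus strand) has 2 CCAAT boxes and an E2F match that overlaps the first of them. It has no match to the CHR letters TTTGAA or TTCGAA, and no other letters were searched for CHR.
Ccnb1: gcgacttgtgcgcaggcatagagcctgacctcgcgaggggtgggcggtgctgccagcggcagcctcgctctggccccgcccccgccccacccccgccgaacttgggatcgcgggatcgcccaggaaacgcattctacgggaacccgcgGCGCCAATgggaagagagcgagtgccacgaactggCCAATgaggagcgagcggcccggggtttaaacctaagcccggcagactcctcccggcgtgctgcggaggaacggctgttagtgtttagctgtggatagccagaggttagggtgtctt
The Mcm5 window (chr8:75109259-75109558, plus strand) has 3 CCAAT boxes and 3 E2F matches, 2 of which overlap each other.
Mcm5: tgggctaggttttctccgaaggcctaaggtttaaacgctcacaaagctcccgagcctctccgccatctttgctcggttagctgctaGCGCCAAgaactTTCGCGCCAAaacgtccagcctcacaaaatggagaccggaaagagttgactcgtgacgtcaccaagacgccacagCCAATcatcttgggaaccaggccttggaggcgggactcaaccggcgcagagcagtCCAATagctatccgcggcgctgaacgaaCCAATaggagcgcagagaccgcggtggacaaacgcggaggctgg
The Ccne1 window (chr7:38107441-38107740, minus strand) has no match to these letters.
Ccne1: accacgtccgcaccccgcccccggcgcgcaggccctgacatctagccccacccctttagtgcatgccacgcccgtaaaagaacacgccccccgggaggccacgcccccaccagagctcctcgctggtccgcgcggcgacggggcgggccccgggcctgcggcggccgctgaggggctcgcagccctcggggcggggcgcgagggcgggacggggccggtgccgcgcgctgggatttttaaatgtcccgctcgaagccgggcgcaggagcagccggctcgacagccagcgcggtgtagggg

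Knockout was then compared with wild type lung, the contrast of the design. No member passed edgeR's quasi-likelihood test over all genes at an adjusted p under 0.05, where 7 of 19832 genes (0.0353%) did, 0.0252% of genes being called higher. All 28 mitotic genes nevertheless had a log2 fold change above 0, as did 14 of 17 S phase genes, against 48.0% of all genes tested. The median log2 fold change was 0.44 over the mitotic genes and 0.15 over the S phase genes, against -0.01 over all genes tested. These differ in size but were not tested against each other, since the genes share the same 7 libraries. At an unadjusted p under 0.05, 13 mitotic genes and 1 S phase gene lay higher and none lower, against 1.82% of all genes higher and 1.05% lower. Every knockout value was above every wild type value for 10 mitotic and 2 S phase genes, against 2.11% of all genes. No member had every knockout value below every wild type value, against 1.61% of all genes. In bulk RNA, more dividing cells and more of these transcripts per dividing cell cannot be told apart.

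**Figure D1:**
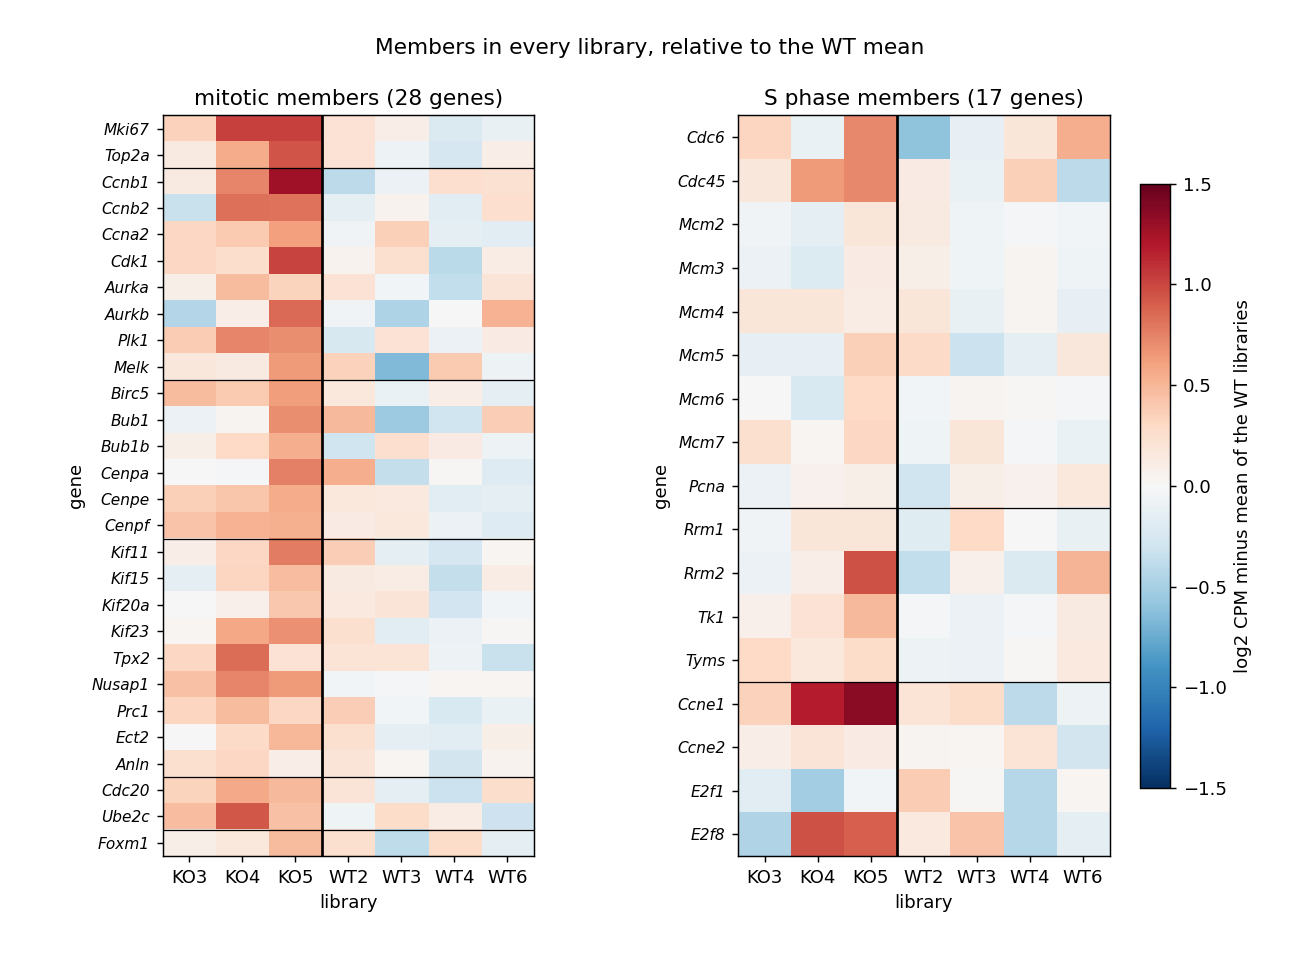
Colour gives log2 CPM (prior count 2) of each gene in each library minus the mean of the 4 wild type libraries, with knockout libraries on the left, and thin lines separate roles. The mitotic genes are mostly red in KO4 and KO5 and paler in KO3, and the median over the 6 MCM genes is -0.03, -0.13 and 0.24 in KO3, KO4 and KO5.

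The proliferation marker Mki67 (ENSMUSG00000031004, chromosome 7, 135689784 to 135716361, minus strand, GRCm38) had the smallest p of the members. It had 51.1, 82.4 and 82.1 CPM in KO3, KO4 and KO5, against 46.9, 43.3, 34.8 and 37.3 CPM in WT2, WT3, WT4 and WT6. All 3 knockout values lay above the wild type values, KO3 closely so. The log2 fold change was 0.82 ± 0.17 (SE), a 1.77-fold level, with an adjusted p of 0.455 in edgeR. It was called by DESeq2 (adjusted p = 0.00731, where 0.237% of genes were called) and by edgeR without KO3 (log2 fold change 1.02, adjusted p = 0.0115), and not without any other library (adjusted p = 0.748 to 1.0). Without KO3, 0.202% of genes were called. A block on the title numbers, which the labels do not call pairs, also called it, where 0.706% of genes were called. In that fit the genotype effect rests on KO3, KO4, WT3 and WT4 alone, whose numbers occur in both genotypes. It is therefore no independent support.

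Top2a, the topoisomerase that untangles sister DNA, had 19.6, 26.3 and 34.5 CPM in knockout libraries, against 20.8, 17.0, 15.1 and 19.2 CPM in wild type libraries. KO3 lay below WT2, so the groups overlapped. The log2 fold change was 0.57 ± 0.18 (SE), and 0.35 without KO5.

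Among the mitotic cyclins and kinases, all 8 genes had positive values (median 0.49), with a wide spread. Ccnb1, cyclin B1, had 1.96, 3.05 and 4.48 CPM in knockout libraries, against 1.32, 1.66, 2.14 and 2.11 CPM in wild type libraries. KO3 lay within the wild type range, and the log2 fold change of 0.81 ± 0.31 (SE) was 0.48 without KO5. Its paralogue Ccnb2 had 1.82, 4.26 and 4.19 CPM in knockout and 2.07 to 2.81 CPM in wild type libraries, with KO3 below all 4. Plk1, the polo-like kinase of mitotic entry, had 2.29, 2.99 and 2.89 CPM in knockout libraries, against 1.44, 2.04, 1.63 and 1.90 CPM in wild type libraries. Here the groups did not overlap (0.64 ± 0.25 SE). Cdk1, the mitotic kinase, had 2.77, 2.67 and 4.55 CPM in knockout libraries, against 2.29, 2.61, 1.63 and 2.39 CPM in wild type libraries. Its knockout values were all higher, KO4 only just, and its log2 fold change of 0.57 ± 0.27 (SE) was 0.29 without KO5. Ccna2, cyclin A2, had 6.00, 6.35 and 7.44 CPM in knockout libraries, against 4.63, 6.18, 4.36 and 4.28 CPM in wild type libraries. Only WT3 reached the knockout range. Aurora kinase A (Aurka) overlapped between groups, at 3.51 to 4.64 CPM in knockout and 2.51 to 3.85 CPM in wild type libraries (0.30 ± 0.22 SE). Melk, a kinase often found in dividing cells, was at 0.29 ± 0.33 (SE), and at 0.11 without KO5. Aurora kinase B (Aurkb) had 1.48, 2.22 and 3.83 CPM in knockout libraries, against 1.98, 1.47, 2.07 and 3.02 CPM in wild type libraries. Its log2 fold change of 0.23 ± 0.35 (SE) was -0.19 without KO5.

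Of 6 genes of the centromere and spindle checkpoint, 3 had every knockout value above every wild type value, against 2.11% of all genes. The median was 0.38. Cenpf, a kinetochore protein, had 11.4, 12.2 and 12.3 CPM in knockout libraries, against 9.20, 9.43, 7.98 and 7.37 CPM in wild type libraries (0.49 ± 0.15 SE). Cenpe, the kinetochore motor, had 8.16, 8.58 and 9.39 CPM in knockout libraries, against 7.10, 7.07, 5.69 and 5.76 CPM in wild type libraries (0.44 ± 0.16 SE). In both, the 3 knockout libraries lay close together. Birc5, survivin of the chromosomal passenger complex, had 3.10, 2.92 and 3.47 CPM in knockout libraries, against 2.47, 2.04, 2.36 and 1.97 CPM in wild type libraries (0.52 ± 0.22 SE). The checkpoint gene Bub1b had 10.2, 11.8 and 14.0 CPM in knockout libraries, against 7.76 to 11.4 CPM in wild type libraries (0.31 ± 0.18 SE, 0.19 without KO5). The centromere histone Cenpa had 5.40, 5.34 and 9.25 CPM in knockout libraries, against 4.21 to 7.94 CPM in wild type libraries (0.25 ± 0.27 SE). Its value rested on KO5, and it was at -0.06 without that library. The checkpoint kinase Bub1 (0.20 ± 0.32 SE) was at -0.09 without KO5.

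The 9 genes of the spindle and of cytokinesis had a median of 0.36. Nusap1, which bundles spindle microtubules, had 6.00, 7.37 and 6.94 CPM in knockout libraries, against 4.27, 4.33, 4.51 and 4.49 CPM in wild type libraries. The wild type values spanned little, and the log2 fold change was 0.62 ± 0.17 (SE), 0.55 to 0.70 with any library left out. Tpx2, the activator of Aurora A on the spindle, had 6.34, 9.21 and 5.93 CPM in knockout libraries, against 5.89, 5.86, 4.80 and 4.0 CPM in wild type libraries. KO5 was barely above WT2, and the log2 fold change of 0.48 ± 0.22 (SE) was 0.25 without KO4. Kif23, a motor of the cytokinetic midzone, had 6.95, 10.2 and 11.0 CPM in knockout libraries, against 8.06, 5.99, 6.35 and 6.88 CPM in wild type libraries. KO3 lay below WT2. The motor that pushes spindle poles apart, Kif11, had 7.56, 8.83 and 12.1 CPM in knockout libraries, against 5.91 to 9.14 CPM in wild type libraries (0.40 ± 0.21 SE). KO5 alone lay above the wild type range, and the value was 0.20 without it. The midzone bundler Prc1 (log2 fold change 0.36), Ect2 (0.27), which acts in cytokinesis, the spindle motor Kif15 (0.22) and anillin (Anln, 0.21) also overlapped between groups. Without KO5, Ect2 was at 0.15 and Kif15 at 0.09. Kif20a, at 0.15 ± 0.20 (SE), lies on chromosome 18 (34624613 to 34633277), 9.13 Mb from Scgb3a2, and shares 29.3% of its exon bases with Cdc23 on the other strand. It was at 0.02 without KO5.

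Both genes of the anaphase-promoting complex, which ends mitosis by marking proteins for degradation, had groups that did not overlap. Over all genes, 2.11% had every knockout value above every wild type value. Ube2c, its E2 enzyme, had 2.5, 3.49 and 2.46 CPM in knockout libraries, against 1.68, 2.17, 1.92 and 1.40 CPM in wild type libraries (0.65 ± 0.26 SE). Since 22.8% of its exon bases overlap the muscle gene Tnnc2 on the other strand, and the strand setting is unknown, its counts are less certain. Cdc20, an activator of the complex, had 4.72, 5.59 and 5.28 CPM in knockout libraries, against 4.27, 3.38, 2.95 and 4.49 CPM in wild type libraries (0.46 ± 0.21 SE). In these genes KO5 was not the highest library. Foxm1, the transcription factor that drives many mitotic genes, had 4.72, 4.95 and 6.21 CPM in knockout libraries, against 3.38 to 5.39 CPM in wild type libraries. The groups overlapped (0.23 ± 0.22 SE, 0.11 without KO5).

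**Figure D2:**
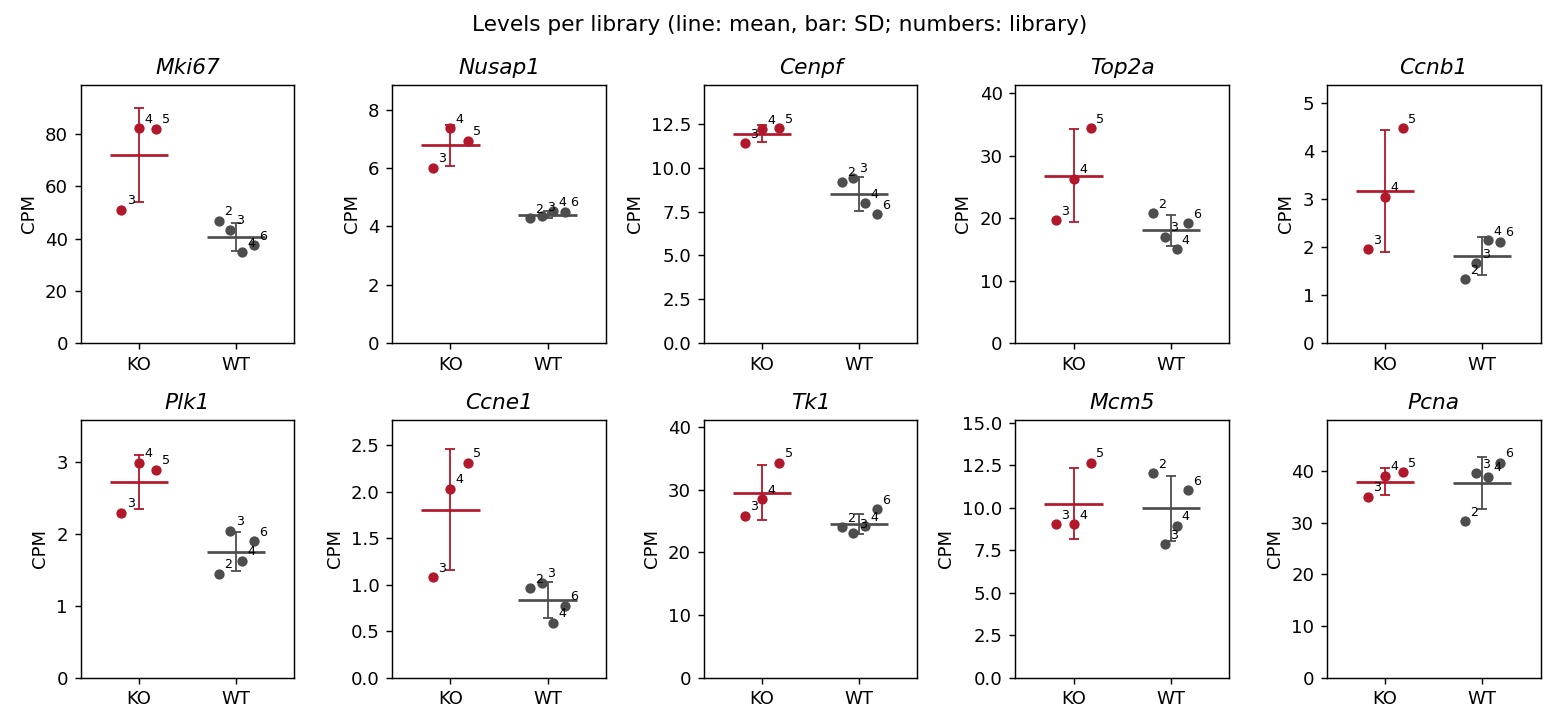
Points are CPM of each library, labelled by number, for 6 mitotic genes and then 4 S phase genes, with knockout left of wild type. Lines are group means and bars are SD (3 knockout and 4 wild type libraries), and Mki67, Nusap1, Cenpf, Plk1 and Ccne1 have groups that do not overlap.

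The S phase genes were closer to the wild type level. The 9 genes of origin licensing, helicase and clamp had a median of 0.04, and the 6 MCM subunits ranged from -0.05 for Mcm3 to 0.20 for Mcm7. Mcm7 had 27.6, 23.7 and 29.0 CPM in knockout libraries, against 22.3, 26.4, 22.9 and 21.7 CPM in wild type libraries. Mcm4 had 27.6, 27.7 and 26.4 CPM in knockout libraries, against 27.7, 22.6, 25.0 and 22.4 CPM in wild type libraries. Both overlapped between groups. Mcm5 had 9.04, 9.02 and 12.6 CPM in knockout libraries, against 12, 7.84, 8.94 and 11.0 CPM in wild type libraries. KO5 was the highest of all and KO3 and KO4 lay among the wild type values, for a log2 fold change of 0.04 ± 0.19 (SE). Mcm6 had 29.2, 25.0 and 36.1 CPM in knockout libraries, against 28.6 to 30.3 CPM in wild type libraries, and was also at 0.04. Mcm2 (-0.001) and Mcm3 (-0.05) had SE of 0.13. Without KO5 the median of the 6 subunits was -0.10. Pcna had 35.0, 39.1 and 39.8 CPM in knockout libraries, against 30.3, 39.6, 38.9 and 41.6 CPM in wild type libraries, a log2 fold change of 0.01 ± 0.13 (SE). The wild type range contained every knockout value. Cdc45, the helicase partner needed for firing, had 3.17, 4.45 and 4.70 CPM in knockout libraries, against 3.07, 2.61, 3.62 and 2.11 CPM in wild type libraries (0.52 ± 0.25 SE). KO3 lay between wild type values. Cdc6, which loads the helicase, had 3.10, 2.29 and 4.12 CPM in knockout libraries, against 1.56 to 3.65 CPM in wild type libraries (0.31 ± 0.31 SE). It was at 0.08 without KO5 and 0.13 without WT2.

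All 4 genes of nucleotide synthesis had positive values, with a median of 0.26. Tk1 had 25.8, 28.5 and 34.3 CPM in knockout libraries, against 24.0, 23.1, 24.2 and 26.9 CPM in wild type libraries (0.27 ± 0.12 SE). KO3 lay below WT6, and the value was 0.15 without KO5. Tyms, thymidylate synthase, had 7.96, 7.24 and 7.88 CPM in knockout libraries, against 6.13, 6.05, 6.57 and 7.16 CPM in wild type libraries. The groups did not overlap, by a small margin, at 0.25 ± 0.16 (SE). Of ribonucleotide reductase, the S phase subunit Rrm2 had 3.17, 3.62 and 6.65 CPM in knockout libraries, against 2.59, 3.57, 2.88 and 4.84 CPM in wild type libraries. KO5 and WT6 were highest in their groups, and the log2 fold change of 0.37 ± 0.30 (SE) was -0.02 without KO5. The large subunit Rrm1 had 29.8 to 35.0 CPM in knockout and 27.3 to 38.0 CPM in wild type libraries, within the wild type range (0.09 ± 0.13 SE).

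The G1/S cyclins and E2F factors differed most among themselves. Ccne1, cyclin E1 (chromosome 7, 38097984 to 38107534, minus strand), had 1.08, 2.03 and 2.31 CPM in knockout libraries, against 0.962, 1.02, 0.591 and 0.772 CPM in wild type libraries. KO4 and KO5 lay well above the wild type values and KO3 just above them, for a log2 fold change of 1.09 ± 0.35 (SE), 0.89 to 1.36 with any library left out. Its relative Ccne2 had 9.58, 10.2 and 9.76 CPM in knockout and 7.37 to 10.3 CPM in wild type libraries (0.13 ± 0.16 SE), with every knockout value inside the wild type range. E2f8, a late repressor of E2F targets, had 0.944, 2.73 and 2.6 CPM in knockout libraries, against 1.5, 1.85, 0.960 and 1.19 CPM in wild type libraries. KO3 was below all wild type libraries and the others above (0.59 ± 0.38 SE). E2f1, an activator, was lower on average, with 5.13, 4.0 and 5.64 CPM in knockout and 4.28 to 7.58 CPM in wild type libraries (-0.27 ± 0.22 SE).

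**Figure D3:**
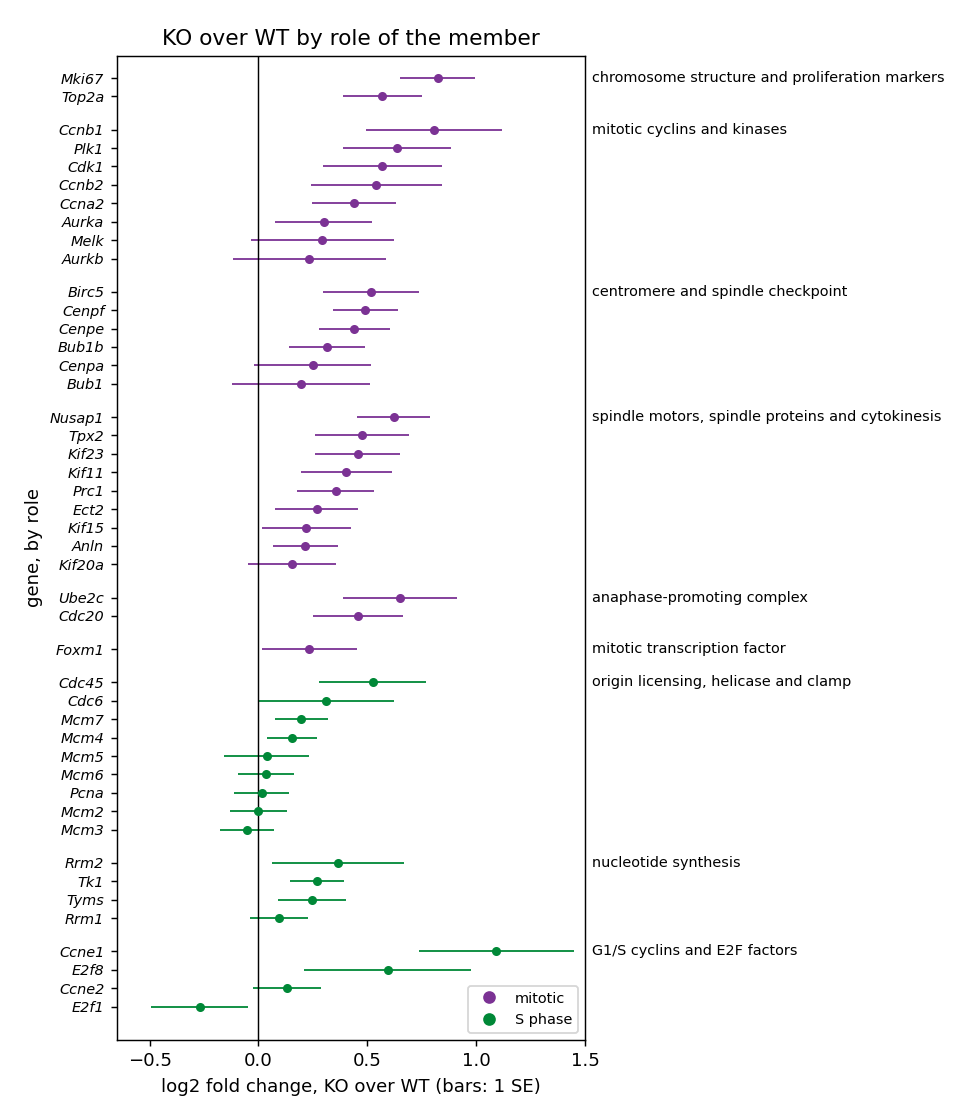
Points are log2 fold changes of knockout over wild type lung with bars of 1 SE from edgeR, sorted within each role. Mitotic genes all lie right of 0, the MCM genes range from -0.05 to 0.20, and Ccne1 has the highest value, 1.09.

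Precision followed the level. The SE was 0.11 to 0.19 for the 14 genes averaging over 10 CPM and 0.25 to 0.38 for the 7 genes under 2.5 CPM. The MCM genes and Pcna are among the best measured members, while the values of Ccne1, E2f8 and Ccnb1 rest on 8 to 62 counts per library.

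The knockout libraries were not alike. For each library the median of log2 CPM minus the wild type mean was taken over each class. Over the mitotic genes it was 0.15 in KO3, 0.41 in KO4 and 0.62 in KO5, against 0.17, -0.03, -0.15 and 0.03 in WT2, WT3, WT4 and WT6. KO3 thus lay below WT2, while KO4 and KO5 lay above all wild type libraries. Over the S phase genes it was -0.01, 0.10 and 0.30 in KO3, KO4 and KO5, against 0.04, 0.02, -0.01 and -0.04 in the wild type libraries. KO3 was in the wild type range. The mitotic median exceeded the S phase median by 0.16, 0.31 and 0.33 in KO3, KO4 and KO5, and by 0.13, -0.05, -0.14 and 0.06 in the wild type libraries. KO3 was the lowest knockout library for 20 of 28 mitotic and 8 of 17 S phase genes, against 31.4% of all genes. Without KO5 the mitotic median was 0.34 with 25 of 28 values positive, and the S phase median was 0.08 with 10 of 17 positive. Without both KO5 and WT6 the medians were 0.34 (26 positive) and 0.10 (12 positive), with Ccna2 at 0.29, Cdc45 at 0.31, E2f8 at 0.35 and Mcm7 at 0.10.

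Further cell cycle genes, listed by role with earlier results of these data known, gave values of the same order. Over 66 tested of 69 other mitotic genes, 61 were positive with a median of 0.39, and over 44 tested of 45 other S phase genes, 38 were positive with a median of 0.12. Without KO5 these medians were 0.24 and 0.03. No gene of these lists was called, against 0.0353% of all genes, and 48.0% of all genes had positive values. Of the mitotic list, the condensin subunit Ncapd2 had 18.5, 22 and 22.2 CPM in knockout libraries, against 16.1, 15.0, 15.8 and 13.5 CPM in wild type libraries, with no overlap (0.47 ± 0.13 SE). Kif14, a motor of cytokinesis, also had groups apart (0.84 ± 0.26 SE), while in the spindle pole gene Aspm (0.56) and the kinetochore scaffold Knl1 (0.65) KO3 lay inside the wild type range. Of the S phase list, the replication checkpoint mediator Clspn (0.69 ± 0.26 SE), Wdhd1 (0.37 ± 0.17 SE), the methylation cofactor Uhrf1 (0.57 ± 0.26 SE) and Dscc1 (-0.72 ± 0.37 SE) had the smallest p. In the list of G1 control and inhibitors, 21 of 33 tested genes were positive with a median of 0.02. Cyclin D1 (Ccnd1), which acts before cyclin E, had 106, 98.7 and 91.4 CPM in knockout libraries, against 110, 122, 136 and 109 CPM in wild type libraries (-0.27 ± 0.11 SE). All its knockout values were lower, and it did not pass. The next in this list were Ccng2 (0.17), E2f2 (0.17) and Lin9 (0.24).

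Markers of lymphocytes moved with the mitotic genes across the knockout libraries. The summed level of 11 B cell markers was 80.1, 156 and 299 CPM in KO3, KO4 and KO5. Wild type libraries had 61.4 to 107 CPM. All 11 had positive values, against 48.0% of all genes, and none was called, against 0.0353% of all genes. The 11 plasma cell markers summed to 668, 1221 and 2317 CPM in knockout libraries, against 465 to 521 CPM in wild type libraries. Of 10 tested, 9 had positive values and none was called, beside the same shares of all genes. From KO3 to KO5 this sum rose most through Igha (122 to 892 CPM), Igkc (133 to 569 CPM) and Jchain (27.0 to 312 CPM). Sdc1, Xbp1 and Prdm1 had log2 fold changes of -0.04, 0.02 and 0.06. The 11 T cell markers summed to 37.4, 52.2 and 69.4 CPM in knockout libraries, against 24.2 to 31.5 CPM in wild type libraries. Sums follow the most abundant genes, so medians, as taken for the mitotic genes, are also given for KO3, KO4 and KO5. For B cells they were -0.07, 1.21 and 2.29, against -0.61 to 0.43 in wild type libraries. Plasma cells had 0.17, 0.65 and 1.80, against -0.06 to 0.13. T cells had 0.33, 0.82 and 1.25, against -0.13 to 0.28. Of 7 germinal centre B cell markers, which mark dividing B cells of lymphoid follicles, 5 were tested, of which 2 were positive, with a median of -0.01. The list's median was -0.04, 0.12 and -0.11 in KO3, KO4 and KO5, against -0.06 to 0.01 in wild type libraries. Among its genes the receptor S1pr2 had 32.3, 32.7 and 33.1 CPM in knockout libraries, all below the 35.8 to 40.01 CPM in wild type libraries. Bcl6 (log2 fold change -0.01), Fas (-0.02) and Gcsam (0.15) overlapped between groups. The transcription factor Mybl1 had 3.51, 6.73 and 7.73 CPM in knockout libraries, against 2.93 to 4.45 CPM in wild type libraries. Rgs13, which was under the count filter, had 0, 7 and 11 counts in KO3, KO4 and KO5 and 0 in all 4 wild type libraries. The germinal centre list as a whole thus did not share the order of the mitotic medians. In the lymphocyte sums KO3 was within the wild type range in the B cell sum and above it in the plasma cell and T cell sums. Mki67, Nusap1, Cenpf and Cenpe were above the wild type range in KO3. They are among the 10 of 28 mitotic genes with every knockout value above every wild type value, so this follows from that trait. The mitotic median was 0.15 in KO3 and 0.17 in WT2. Erythroid precursor markers summed to 123 to 151 CPM in knockout and 119 to 170 CPM in wild type libraries, and those of alveolar macrophages to 536 to 704 CPM and 484 to 624 CPM, so that these sums overlapped. Mesothelial markers summed to 278, 318 and 387 CPM in knockout and 228 to 406 CPM in wild type libraries. The highest sums of each group were in KO5 and WT6. In KO3, KO4 and KO5 the erythroid medians were 0.06, -0.01 and -0.04, against -0.26 to 0.33 in wild type libraries. Those of macrophages were 0.20, 0.25 and -0.19, against -0.12 to 0.09. Mesothelial medians were -0.87, -0.05 and 0.78, against -0.40 to 1.01. The mesothelial list thus shared the order KO3, KO4, KO5 with the lymphocyte lists, and 21.7% of all genes tested had this order. The mitotic median was 0.62 in KO5 and 0.03 in WT6. The part of these cell types in the mitotic difference was not tested.

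**Figure D4:**
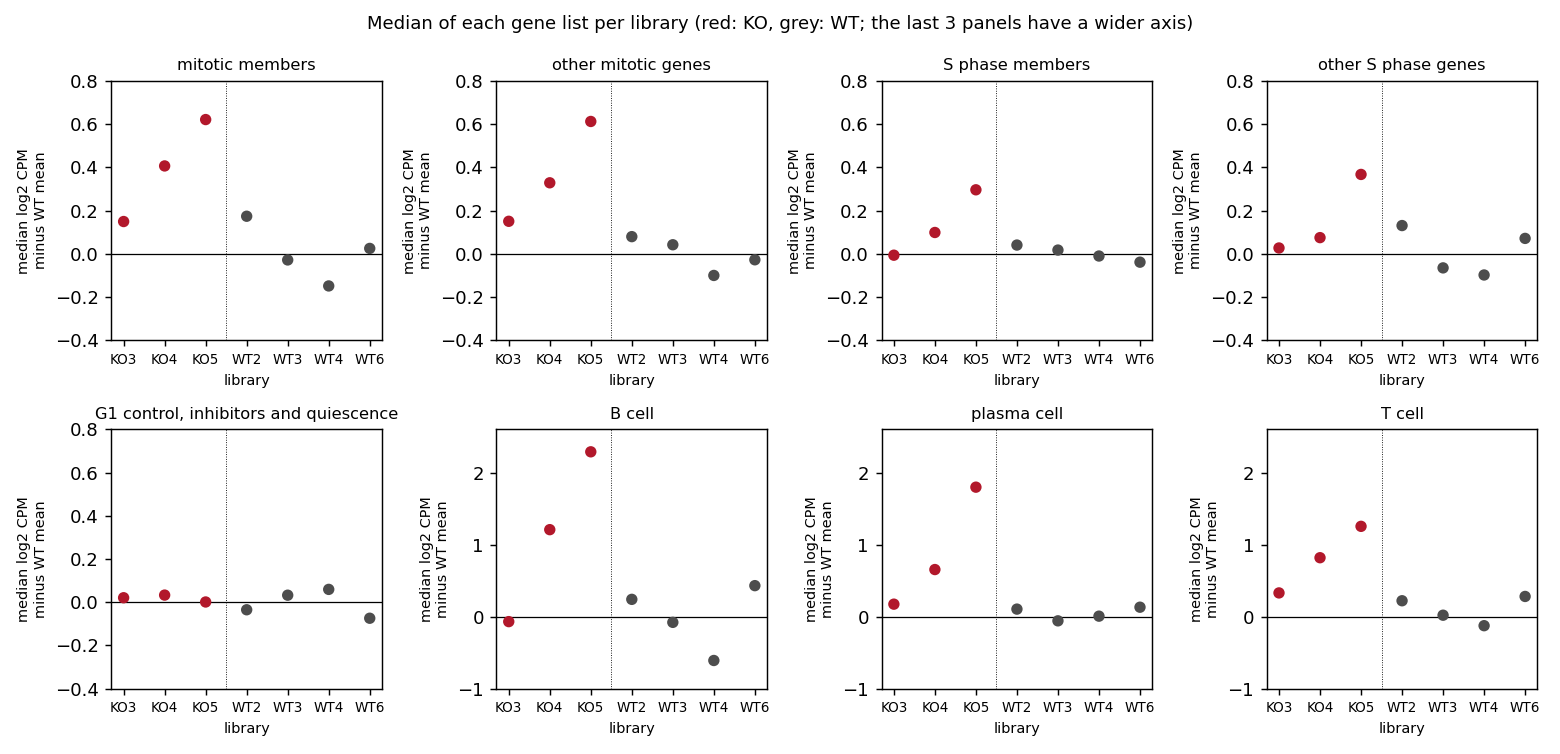
Each point is a library's median, over the genes of a list, of log2 CPM minus the wild type mean, with knockout libraries (red) left of wild type (grey). The mitotic lists, the S phase lists and the B cell, plasma cell and T cell lists share the order KO3, KO4, KO5. The list of G1 control lies between -0.07 and 0.06 in every library.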

How the data were processed

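Whole-lung RNA was sequenced in 3 knockout and 4 wild type libraries. The authors deposited raw read counts per gene, 1 column per library and not normalized. Per the submitters' processing notes STAR, DESeq2 and mm10 were used, without versions or roles, while the program that counted reads, its annotation and its use of strand are not stated there. Reads of overlapping genes and of pseudogene copies (as of Pcna, Tyms, Ccnb1 and Ccnb2) could therefore have been shared.

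Genes were tested with edgeR 4.0.16 in R 4.3.3 (its filter on low counts by genotype, TMM, robust quasi-likelihood test, genotype as the only term, two-sided, Benjamini-Hochberg adjustment over all genes, threshold 0.05). Values after ± are the SE of the log2 fold change in the fit. CPM use library totals over all genes scaled by TMM, and log2 CPM a prior count of 2. In the shallowest library a count of 3 is 0.217 CPM. The procedure was tested on simulated data. Alternatives were DESeq2 1.42.0, other scaling, no filter, each library left out, the pair KO5 and WT6 as a term or left out, and a block by title number. The closest pair of libraries had a chi-square per degree of freedom of 4.67, above sampling noise.

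Positions and exon lengths came from GENCODE M21 (GRCm38, the assembly of mm10) by gene symbol. The members, lists and alternatives were chosen with earlier results of these data known. Values per library are given for Mki67, Top2a, the 12 other mitotic and 8 S phase genes with the smallest p, and 4 genes are named per list. Values per library of other genes were added after they were seen.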

Additional observations from a re-analysis of the deposited data

Results flagged for a closer look

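Of 93 named genes examined among the 4 wild type libraries, 4 had a library far from the other 3, and chance gives about 1 in 20. Kif15 had 4.51 CPM in WT4, against 6.25 to 6.38 CPM in WT2, WT3 and WT6. Knl1 had 3.25 CPM in WT4, against 4.91 to 5.10 CPM. Uhrf1 had 7.16 CPM in WT6, against 4.57 to 4.95 CPM. The mesothelial gene Msln had 55.2 CPM in WT6, against 12.3 to 19.4 CPM.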

How the results depend on the processing

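With all genes, 7 were called, against 47 with DESeq2, 29 with a term for the pair KO5 and WT6, 14 without this pair, and 3 to 41 with each library left out (3 without WT2, WT3 or WT4, and 41 without KO3). Of the members 0 were called, and 1, Mki67, with DESeq2 (log2 fold change 0.82) and without KO3. Members with all knockout values above all wild type values numbered 12, against 11 with RLE scaling or DESeq2, 10 with library totals alone, 14 without the pair, and 13 to 24 with each library left out (24 without KO3). Leaving out a library can only add to such a count, apart from rescaling, so that range says nothing of its stability. This count was not made for the block or the pair term, which leave the values as they are, or for the fit without the filter. The medians stayed positive, at 0.34 to 0.51 for mitotic and 0.08 to 0.20 for S phase genes with each library left out, and moved by less than the spread between libraries under every alternative.

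The title numbers 3 and 4 occur in both genotypes, and nothing in the labels says that they pair animals. Deviations from the group means correlated at 0.24 and 0.20 for the same numbers, and KO4 correlated more with WT3 (0.22). With a replicate block 140 genes were called and 1 member, Mki67 (log2 fold change 0.74). The medians were 0.41 and 0.07, with Mcm6 at -0.148, Pcna at -0.0869 and Rrm1 at -0.081. Only the libraries numbered 3 or 4 inform the genotype effect under this block.

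Of 630 values of single members, 603 kept their sign and their side of the threshold. Those that changed sign belong to 11 genes. Mcm2 was at 0.0168 with library totals alone, and Mcm5 at -0.00372 with the pair term. Without KO5 and WT6, Cenpa was at -0.131, Kif20a at -0.00148, Mcm5 at -0.0888 and Mcm6 at -0.119. With each library left out, the ranges were -0.093 to 0.0625 (Mcm2), -0.142 to 0.0186 (Mcm3), -0.138 to 0.141 (Mcm5), -0.11 to 0.151 (Mcm6), -0.0789 to 0.0677 (Pcna), -0.0223 to 0.568 (Rrm2), -0.19 to 0.499 (Aurkb), -0.0854 to 0.382 (Bub1) and -0.0557 to 0.47 (Cenpa). The cause of these changes was not tested. Depth limits the genes under 2.5 CPM.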
